A study of Mus musculus with 4 samples.

Results

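The 7 genes described here are Gdf15, Pmepa1, Tgfb1, Tgfbr1, Tgfbr2, Smad3 and Smad7, out of 32285 genes in the deposited count matrices. They are GDF15, a stress-induced cytokine of the wider TGF-beta family, and TGF-beta 1 with its receptors, its main intracellular mediator and 2 of its intracellular brakes. Gdf15 and Pmepa1 were chosen by their UMI counts in macrophages of these same libraries, which differed between the zones of the liver, so in macrophages the zone values of all 7 genes are a description and carry no test. The other 5 genes complete the signalling chain. Each gene was found in the matrices and in the annotation, and none overlaps another annotated gene on either strand.

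Leukocytes carrying CD45 were taken from the livers of healthy C57BL/6 mice with PA-GFP, a green fluorescent protein that light switches on, and every library shares this genotype and the photoactivation treatment. Light was used to mark 1 zone, so that leukocytes near portal veins (PV), which bring blood from the gut, could be set against those near central veins (CV), which drain the organ. There were 2 PV and 2 CV libraries, each a droplet library that counts single mRNA molecules by unique molecular identifiers (UMIs). The labels give no age or sex, nor do they say whether each library is a separate mouse. The p-values therefore describe variation among 4 libraries, some or all of which may be technical.

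The matrices held 622 and 755 barcodes in the first and second PV library and 624 and 588 in the first and second CV library, called replicates 1 and 2 below. Libraries shared cell barcodes: 282 of 1939 distinct barcodes occurred in more than 1 library. A shared barcode was kept only in the library holding at least 70% of its UMIs, which together with the cell filters left 333 and 512 PV cells and 372 and 376 CV cells, 1593 in all against 2297 with shared barcodes kept. The median depth was 6217 and 6317.5 UMIs per PV cell and 5369 and 5623 UMIs per CV cell. Cells were sorted into classes by marker genes, none of them among the 7 genes: 225 Kupffer cells, which are the resident macrophages of liver sinusoids, 64 other macrophages, 733 T cells, 158 B cells, 86 natural killer (NK) cells and type 1 innate lymphoid cells (ILC1), 88 neutrophils, 84 type 1 conventional dendritic cells (cDC1) and 31 plasmacytoid dendritic cells (pDC). The median cell had 7 of 8 macrophage markers in both macrophage gates, 8 of 8 in cDC1, pDC and neutrophils, 6 of 8 in T and B cells, and 4 of 8 in NK cells and ILC1, where 37 of the 86 cells only just passed the gate. PV replicate 1 stood apart, with 22 macrophages of which 4 were Kupffer cells, against 140 macrophages in PV replicate 2 and 66 and 61 in the CV libraries. With shared barcodes kept, the 4 libraries held 110, 185, 127 and 128 macrophages.

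TGF-beta 1 is secreted in a latent complex and is released by integrins. The active ligand binds the type II receptor encoded by Tgfbr2, which phosphorylates the type I receptor encoded by Tgfbr1, and this receptor activates Smad2 and Smad3 to enter the nucleus. Smad7, which blocks the type I receptor, and Pmepa1, a membrane protein that holds Smad2 and Smad3 back, are both induced by the signal and limit it. GDF15 is a distant relative that rises in stressed cells through the integrated stress response and p53, and its receptor Gfral is known from the hindbrain. In the liver, TGF-beta is best known for activating stellate cells and for shaping tissue-resident lymphocytes.

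The starts of Gdf15, Tgfb1 and Tgfbr1 are shown because these genes had the most different spread over cell classes: Gdf15 was read almost entirely in macrophages, Tgfb1 in each of the 8 main classes, and Tgfbr1 at its highest mean level in macrophages that are not Kupffer cells. Each window runs from 250 bases before to 50 bases after the start site, 5′ to 3′ on the gene's strand, from RefSeq on GRCm38.p6, and 5 of the 7 genes had an entry. Capitals mark matches, on either strand, to the SMAD core CAGAC or the GC box GGGCGG. No capitals stand for the 3 stress-related motifs that were also searched, the cAMP response element TGACGTCA, the C/EBP-ATF element TGATGNAA and the AP-1 element TGANTCA, because these windows hold 0 matches to them.
Gdf15 chr8:70632407-70632706, minus strand: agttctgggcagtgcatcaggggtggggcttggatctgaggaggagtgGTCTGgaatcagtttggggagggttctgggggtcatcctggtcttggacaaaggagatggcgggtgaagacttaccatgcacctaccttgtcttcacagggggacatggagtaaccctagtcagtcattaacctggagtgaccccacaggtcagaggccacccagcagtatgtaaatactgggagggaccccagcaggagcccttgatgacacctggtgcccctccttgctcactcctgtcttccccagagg
Tgfb1 chr7:25686752-25687051, plus strand: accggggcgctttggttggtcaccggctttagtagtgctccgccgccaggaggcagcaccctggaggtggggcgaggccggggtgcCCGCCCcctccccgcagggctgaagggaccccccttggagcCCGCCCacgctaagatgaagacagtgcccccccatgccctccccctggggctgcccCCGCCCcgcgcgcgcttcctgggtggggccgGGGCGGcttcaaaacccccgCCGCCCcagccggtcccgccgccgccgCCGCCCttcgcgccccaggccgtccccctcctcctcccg
Tgfbr1 chr4:47352972-47353271, plus strand: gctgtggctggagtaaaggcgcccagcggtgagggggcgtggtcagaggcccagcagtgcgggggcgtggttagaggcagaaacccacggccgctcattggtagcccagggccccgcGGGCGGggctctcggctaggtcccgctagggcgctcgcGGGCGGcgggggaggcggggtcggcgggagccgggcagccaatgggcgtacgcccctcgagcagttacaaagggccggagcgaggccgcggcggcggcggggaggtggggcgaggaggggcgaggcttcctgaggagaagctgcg
The Gdf15 window holds 1 SMAD core, 202 bases before the start, and 0 GC boxes. The Tgfb1 window holds 6 GC boxes and 0 SMAD cores, and the Tgfbr1 window holds 2 GC boxes, 133 and 95 bases before the start. Of 32851 mouse promoter windows of the same 300 bases, 49.6% hold a SMAD core and 35.7% a GC box, so either match is common, while 1.79% hold the cAMP response element, 3.97% the C/EBP-ATF element and 7.81% the AP-1 element. A match is a run of letters and not a shown binding site.

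Across all 1593 cells, Gdf15 had 393 UMIs in 27 cells (1.69% of cells), the fewest cells of the 7 genes, and up to 135 UMIs in 1 cell. Smad3 had 205 UMIs in 170 cells and never more than 5 in a cell. Pmepa1 had 345 UMIs in 182 cells, Tgfbr1 496 in 302, Tgfbr2 725 in 497, Smad7 1046 in 590 and Tgfb1 1884 in 835 cells (52.4%). Gdf15 was thus the gene with many molecules in few cells, and Smad3 the gene with few molecules spread thinly. Levels below are UMIs of a gene scaled to the summed UMIs of the class in that library (CPM). The 3′ tag counting does not scale with transcript length, and levels are compared within a gene only.

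**Figure D1:**
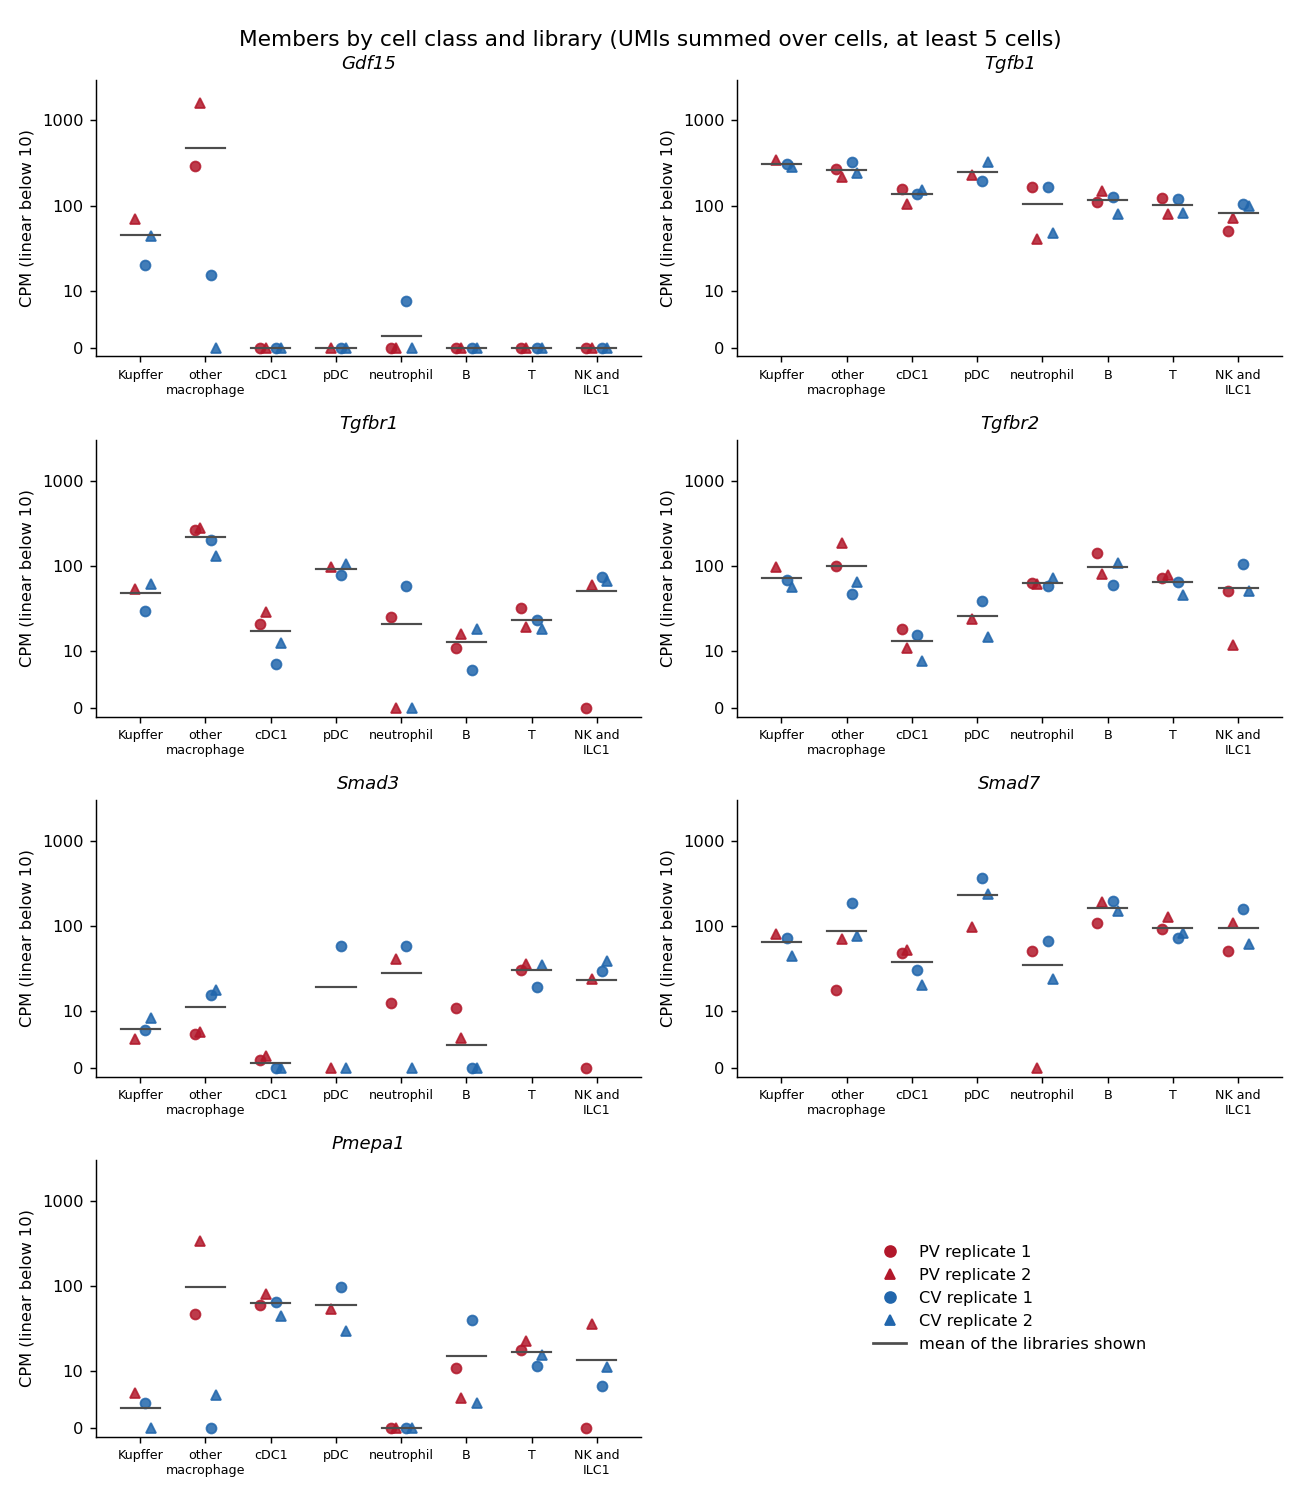
CPM of each gene (vertical axis, linear below 10 and logarithmic above) in 8 cell classes, 1 point per library with at least 5 cells of the class and a bar at the mean of the libraries shown. Gdf15 lay above 0 in the macrophage gates and in 1 neutrophil library, Tgfbr1 was highest in macrophages other than Kupffer cells, and Tgfb1 was above 0 in every class and library shown.

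Gdf15 (chr8:70629393-70632456, minus strand, GRCm38) was read in macrophages, with 392 of its 393 UMIs in 26 of 289 macrophages and the remaining UMI in a neutrophil. The 19 Kupffer cells with the transcript, of 225 (8.44%), held 93 UMIs, and the 7 other macrophages with it, of 64 (10.9%), held 299. T cells had 0 UMIs in 733 cells, which allows a share of up to 0.409%. B cells, NK cells and ILC1, cDC1 and pDC also had 0. Such a limit is on cells with a UMI at this depth, not on cells expressing the gene, and limits and intervals given here cover counting error only. At an equal depth of 2000 UMIs per cell, 12 of 192 Kupffer cells (6.25%, 95% Wilson interval 3.61 to 10.6) and 5 of 57 other macrophages (8.77%, 3.81 to 18.9) held Gdf15, against 0 of 714 T cells. The intervals of both macrophage gates overlapped, while the molecules lay mostly in the other macrophages.

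In macrophages of both gates, Gdf15 stood at 262 and 279 CPM in the PV libraries (49 UMIs in 3 cells and 318 in 14 cells), against 19.6 and 29.4 CPM in the CV libraries (10 UMIs in 5 cells and 15 in 4 cells). The zones did not overlap, and the pooled ratio was 11.3, on the values by which Gdf15 was chosen. Within Kupffer cells Gdf15 stood at 70.2 CPM in PV replicate 2, against 20.2 and 44.1 CPM in the CV libraries, with 0 UMIs in the 4 Kupffer cells of PV replicate 1. In the other macrophages it stood at 290 and 1594 CPM in PV libraries, against 15.4 and 0 CPM in CV libraries. With shared barcodes kept, the macrophage levels were 270 and 269 CPM in PV libraries, against 44.2 and 61.4 CPM in CV libraries.

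Single cells set these levels. In PV replicate 1, 1 cell held 46 of the 49 UMIs (93.9%), and in PV replicate 2 the top cell held 135 of 318 and the next 108. Without the top cell of each library, Gdf15 was at 17.5 and 164 CPM in PV libraries, against 7.96 and 14.0 CPM in CV libraries, so the margin between PV replicate 1 and CV replicate 2 was 17.5 against 14.0 CPM. All 3 of the richest cells were macrophages outside the Kupffer gate, with 14183 to 20927 UMIs in all. The richest CV cells, with 6 and 8 Gdf15 UMIs, were Kupffer cells. The plot of UMIs in single macrophages shows this split.

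**Figure D2:**
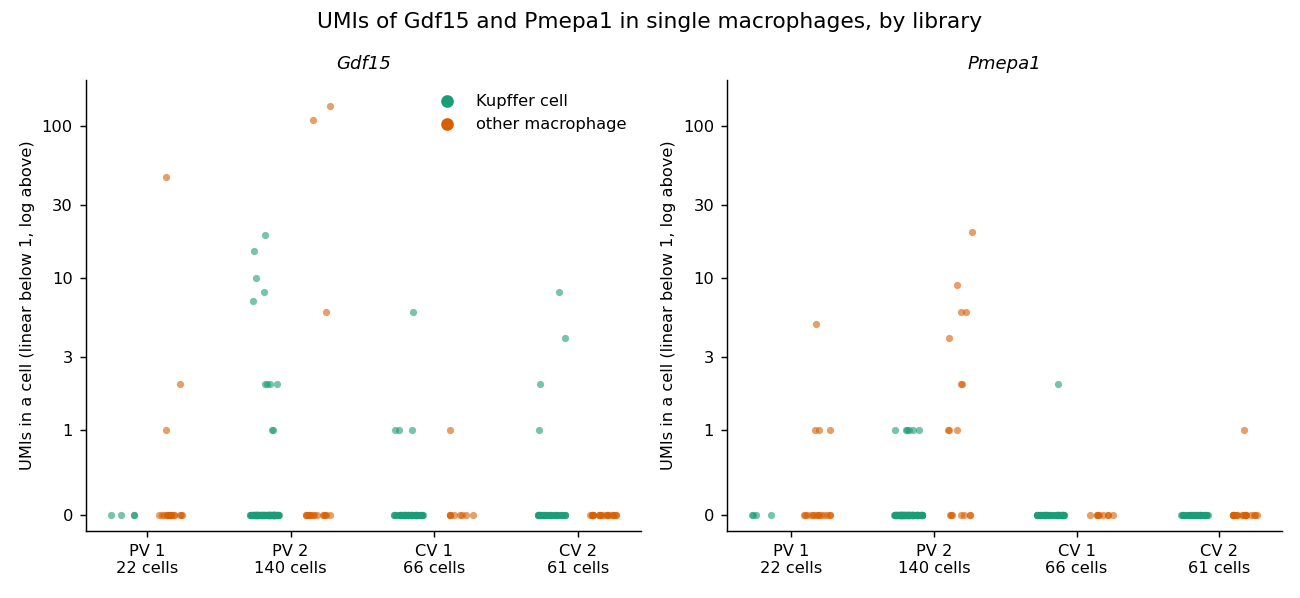
UMIs of Gdf15 (left) and Pmepa1 (right) in each of the 289 macrophages, by library, with Kupffer cells in green and other macrophages in orange (vertical axis linear below 1 and logarithmic above). Gdf15 reached 46 and 135 UMIs in a PV cell against 6 and 8 in a CV cell, and Pmepa1 reached 5 and 20 in a PV cell against 2 and 1 in a CV cell.

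The macrophages that carried Gdf15 outside the Kupffer gate differed between the PV libraries, by genes chosen after their values were seen. All 997 UMIs of Spp1, a secreted phosphoprotein of scar-associated macrophages, that macrophages held were in the 3 Gdf15 carriers of PV replicate 1, with 320, 567 and 110 UMIs. The 2 richest Gdf15 cells of PV replicate 2 held 0 Spp1 UMIs, but 20 and 19 UMIs of Trem2, a lipid receptor, and 33 and 27 of Cd63, a lysosomal membrane protein. Atf3, a transcription factor of the integrated stress response, was present in both kinds of cell, with 92 UMIs in the richest cell of PV replicate 1 and 46 and 60 in the 2 richest of PV replicate 2. Pooled over the 7 Gdf15 carriers, Atf3 stood at 2481 CPM, against 259 CPM in the 15 carriers of Pmepa1 alone and 1040 CPM in the 42 other macrophages with neither gene. Cdkn1a, the p53 target encoding p21, stood at 506 CPM with Gdf15, against 7.41 CPM with Pmepa1 and 83.3 CPM with neither. Mdm2, also a p53 target, stood at 149, 37.0 and 40.1 CPM in the same order. Ddit3, the stress factor CHOP, differed less, at 69.5 CPM with Gdf15, 22.2 CPM with Pmepa1 and 58.6 CPM with neither. Spp1 is also on the cholangiocyte marker list, whose summed level in macrophages was 5345 and 3.51 CPM in PV libraries and 0 and 3.92 CPM in CV libraries. In PV replicate 1 the 997 Spp1 UMIs themselves made up nearly all of that sum, and 5 of the 8 markers were at 0 UMIs. The part of cholangiocytes in the result was not tested.

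Of 289 macrophages, 26 held Gdf15, 22 held Pmepa1 and 1, a Kupffer cell, held both, counts too small to read a relation between the carriers from them. Outside the Kupffer gate, Cx3cr1, the fractalkine receptor, had 2 UMIs in the Gdf15 carriers, against 719 CPM in the Pmepa1 carriers and 565 CPM in cells with neither. Ccr2, the chemokine receptor of blood-derived monocytes, had 1 UMI in the Gdf15 carriers, against 548 and 639 CPM in these 2 sets. Cd63 was high in both sets of carriers, at 943 CPM with Gdf15 and 756 CPM with Pmepa1, against 117 CPM with neither. The sets differed in depth, with medians of 15665 UMIs per Gdf15 carrier, 7124 per Pmepa1 carrier and 7395 per cell with neither. They also differed in library, in the order PV replicate 1, PV replicate 2, CV replicate 1 and CV replicate 2. There were 3, 3, 1 and 0 Gdf15 carriers, 4, 10, 0 and 1 Pmepa1 carriers, and 11, 4, 8 and 19 cells with neither. Among Kupffer cells, the 19 with Gdf15 held Atf3 at 651 CPM and Cdkn1a at 183 CPM, against 230 and 28.1 CPM in the 206 without it. Ddit3 was at similar levels, 61.0 CPM with Gdf15 and 57.3 CPM without it, and Mdm2 stood at 74.6 and 48.2 CPM. These levels are pooled over cells and libraries and have no replicate error.

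**Figure D3:**
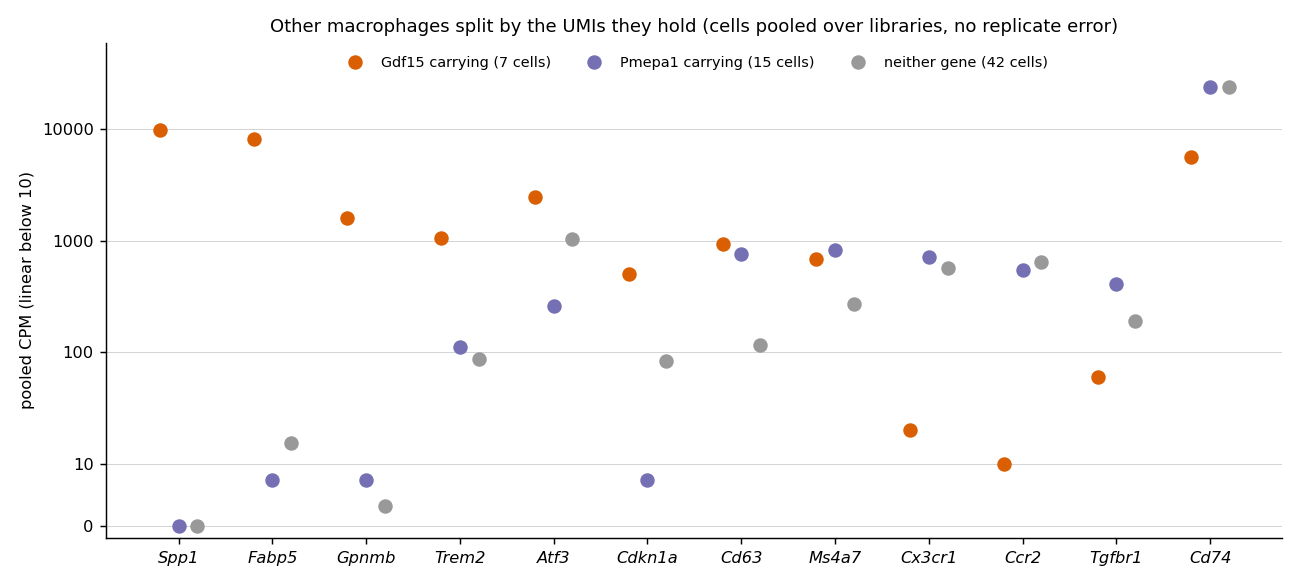
CPM of 12 genes (vertical axis, linear below 10 and logarithmic above) pooled over macrophages outside the Kupffer gate that carried Gdf15 (7 cells), Pmepa1 (15 cells) or neither (42 cells), without replicate error. Spp1, Fabp5 and Gpnmb were high with Gdf15 alone, and Cx3cr1 and Ccr2 were high with Pmepa1 and with neither. Of the UMIs in macrophages, PV replicate 1 held all 997 of Spp1, 758 of 856 of Fabp5 and 154 of 166 of Gpnmb.

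Gdf15-positive macrophages of both gates were summed per library and tested against Gdf15-negative ones of the same library, with Gdf15 left out. Of 1917 genes tested, 1 differed (0.0522% of genes), Ifrd1, interferon-related developmental regulator, at log2 2.65 ± 0.38 (SE, edgeR adjusted p = 0.0227). It is on none of the pathway lists. None of the stress, p53 or TGF-beta list genes passed the test: Id2 stood at log2 1.92 ± 0.39 (edgeR adjusted p = 0.14), Atf3 at 1.76 ± 0.47 (adjusted p = 0.21) and Tgfb1 at -0.48 ± 0.45. Unadjusted, 178 of all genes had p under 0.05, and DESeq2 called 13 genes. The positive cells were also deeper, with a median of 8750 UMIs against 6647 UMIs in negative cells, and their mitochondrial share was 2.70% against 3.03%.

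Tgfb1 (chr7:25687002-25705077, plus strand), the ligand, was highest in macrophages. PV macrophages held 294 and 326 CPM and CV macrophages 310 and 270 CPM, against 79.0 to 124 CPM over the 4 T cell sums and 105 to 157 CPM over those of cDC1. No library of T cells, B cells or cDC1 reached the lowest macrophage library. Macrophages exceeded the mean of T cells, B cells, cDC1 and neutrophils by log2 1.27 ± 0.17 (edgeR adjusted p = 2.68e-07), and T cells lay below the mean of the other 4 classes by log2 -0.74 ± 0.19 (adjusted p = 0.00123). Among the main classes, Kupffer cells had the highest mean level (312 ± 29.2 CPM, SD, n = 3 libraries). Other macrophages (264 ± 46.0, n = 4) and pDC (249 ± 69.3, n = 3) came next. Then came cDC1 (138 ± 23.2), B cells (117 ± 28.9) and neutrophils (104 ± 69.2). T cells (101 ± 23.9) and NK cells with ILC1 (81.7 ± 25.7) ended the order, with n = 4 from cDC1 on. The step from pDC to cDC1 was the only one between neighbours in this order larger than their combined spread. That step holds among the main classes only, as cDC2 stood inside it at 184 ± 50.4 CPM (n = 2). At 2000 UMIs per cell, 49.0% of 192 Kupffer cells and 47.4% of 57 other macrophages held a Tgfb1 UMI, against 16.8% of 714 T cells.

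Tgfbr1 (chr4:47353222-47414931, plus strand), the type I receptor, separated the macrophage gates. In the Kupffer cells of the 3 libraries with at least 5 cells it stood at 52.9 CPM in PV replicate 2, with 29.2 and 61.7 CPM in the CV libraries. In other macrophages Tgfbr1 stood at 266 and 275 CPM in PV libraries and at 201 and 129.5 CPM in CV libraries, from 45, 43, 13 and 22 UMIs. The gates did not overlap. Tested within these 3 libraries, Tgfbr1 was lower in Kupffer cells than in other macrophages by log2 -2.26 ± 0.35 (edgeR adjusted p = 3.61e-06), the only call among the 5 members tested, where 18.2% of 3774 genes were (9.62% higher and 8.56% lower). With shared barcodes kept the difference was -2.29 (adjusted p = 9.145e-07), and after thinning Tgfbr1 did not pass the filter. Tgfbr2 (log2 -0.67 ± 0.37, adjusted p = 0.226), Smad7 (-0.81 ± 0.38, adjusted p = 0.143) and Tgfb1 (0.08 ± 0.29, adjusted p = 0.901) did not pass, though Tgfbr2 did with shared barcodes kept (-0.80, adjusted p = 0.0465). Gdf15 stood at -2.50 ± 2.33 (adjusted p = 0.628), and with shared barcodes kept it was lower in Kupffer cells (-3.33, adjusted p = 0.00122). In that setting 1 barcode can count in several libraries, so the libraries are not independent and its p-values for these genes are not replicate evidence. On the pathway lists, Atf3 (-2.62 ± 0.29) and Egr1 (-1.21 ± 0.27), both immediate stress-response transcription factors, were lower in Kupffer cells.

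Set against the other classes, Tgfbr1 in macrophages of both gates was higher by log2 2.19 ± 0.29 (edgeR adjusted p = 4.48e-07). It passed the filter on low counts through its 4 macrophage sums, which held it above the limit of 39.6 CPM with 1 further sum of neutrophils, so that it had to differ, and without the filter the difference was 2.15 ± 0.25 (adjusted p = 6.33e-17). In a fit of 8 classes added after the data were seen, other macrophages were above the rest by log2 2.60 ± 0.25 (edgeR adjusted p = 1.95e-12), where 21.0% of 4884 genes were higher. Kupffer cells stood at 0.06 ± 0.26 (adjusted p = 0.92), where 48.1% of genes were called, and pDC were higher by 1.11 ± 0.40 (adjusted p = 0.0382), where 15.2% were. The mean levels ran from other macrophages (218 ± 67.7 CPM, SD, n = 4) over pDC (92.3 ± 13.8, n = 3), NK cells with ILC1 (50.3 ± 34.1), Kupffer cells (47.9 ± 16.8, n = 3), T cells (23.3 ± 6.34), neutrophils (20.7 ± 27.4) and cDC1 (17.3 ± 9.26) to B cells (12.9 ± 5.07, n = 4 where not given). Steps larger than the combined spread were those from other macrophages to pDC, from pDC to NK cells with ILC1, and from Kupffer cells to T cells. The last of these holds among the 8 main classes only, as cDC2 stood inside it at 45.6 ± 34.5 CPM (n = 2). At equal depth, 8.33% of 192 Kupffer cells held a UMI (5.19 to 13.1), against 35.1% of 57 other macrophages (24.0 to 48.1).

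Tgfbr2 (chr9:116084293-116175360, minus strand), the type II receptor that binds the ligand first, was low in cDC1 and pDC and present at similar levels in most other classes. It stood at 18.1 and 11.0 CPM in PV cDC1 and at 15.3 and 8.20 CPM in CV cDC1, against 45.5 to 79.0 CPM over the T cell sums and 60.4 to 142 CPM over the B cell sums. Every cDC1 library lay below every T and B cell library. The difference of cDC1 from the other 4 classes was log2 -2.28 ± 0.29 (edgeR adjusted p = 1.57e-07). B cells were higher by 1.09 ± 0.25 (adjusted p = 0.000821). Macrophages were higher by 0.65 ± 0.20 (adjusted p = 0.00835), but without PV replicate 2 this was 0.43 with an adjusted p of 0.219. At their own depth 15 of 84 cDC1 (17.9%, median 21606 UMIs per cell) held a Tgfbr2 UMI. At the equal depth of 2000 UMIs, 0 of 84 did, against 14.0% of 714 T cells and 33.3% of 57 other macrophages. The mean levels ran from other macrophages (99.3 ± 61.8 CPM, SD, n = 4) to cDC1 (13.1 ± 4.40, n = 4), with no step between neighbours in that order larger than their combined spread. Next to cDC1 stood pDC, at 25.8 ± 11.9 CPM (n = 3), so the low level was not particular to cDC1.

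Smad3 (chr9:63646767-63757994, minus strand), the transcription factor that carries the signal to the nucleus, was read mainly in T cells, with 150 of its 205 UMIs there (73.2%), where T cells were 46.0% of all cells. It stood at 30.7 and 35.5 CPM in PV T cells and at 19.5 and 35.0 CPM in CV T cells, against 1.39 and 2.20 CPM in PV cDC1 and 0 and 0 CPM in CV cDC1. Every T cell library lay above every cDC1 library. Smad3 did not pass the filter on low counts. Without it, T cells were higher than the other 4 classes by log2 2.50 ± 0.36 (edgeR adjusted p = 6.91e-11), neutrophils were higher by 2.27 ± 0.68 (adjusted p = 0.00553), cDC1 were lower by -2.77 ± 0.86 (adjusted p = 0.00779), and macrophages stood at -0.33 ± 0.67. At equal depth, 4.90% of 714 T cells held a UMI (3.55 to 6.74), against 0 of 57 other macrophages and 0 of 84 cDC1. The mean of T cells (30.2 ± 7.42 CPM, SD, n = 4) was the highest, but no step between neighbours in the order was larger than their combined spread.

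Smad7, on chromosome 18, the brake that binds the type I receptor, was highest in pDC and B cells. B cells held 109.5 and 192 CPM in PV libraries and 195 and 148 CPM in CV libraries, against 48.7 and 52.7 CPM in PV cDC1 and 30.6 and 20.5 CPM in CV cDC1. These 2 classes did not overlap. B cells exceeded the other 4 classes by log2 1.53 ± 0.28 (edgeR adjusted p = 5.55e-05). The lower level in cDC1, log2 -0.77 ± 0.30 (adjusted p = 0.0353), was not past the test without CV replicate 1 (-0.48, adjusted p = 0.28), without CV replicate 2 (-0.65, adjusted p = 0.144), without the filter on low counts (-0.55, adjusted p = 0.118) or after thinning (-1.03, adjusted p = 0.143). T cells stood at 0.41 ± 0.23 (adjusted p = 0.134), and were past the test without CV replicate 1 (0.78, adjusted p = 0.0191), as neutrophils were without it, in the lower direction (-1.57, adjusted p = 0.0459). The order of mean levels began with pDC (233 ± 135 CPM, SD, n = 3), B cells (161 ± 40.3), NK cells with ILC1 (94.0 ± 48.9) and T cells (93.8 ± 23.6), and ended with cDC1 (38.1 ± 15.2) and neutrophils (35.1 ± 29.1, n = 4 for each of these). The steps from B cells to NK cells with ILC1 and from Kupffer cells (65.1 ± 18.6, n = 3) to cDC1 were larger than the combined spread. The first of these holds among the main classes only, as cDC2 stood inside it at 138 ± 45.1 CPM (n = 2).

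Pmepa1 (chr2:173224458-173276533, minus strand), the membrane brake, was read in dendritic cells of both zones and in PV macrophages. In cDC1 it stood at 59.8 and 81.2 CPM in PV libraries, from 23 of 36 and 16 of 23 cells, and at 65.1 and 45.1 CPM in CV libraries, from 6 of 13 and 5 of 12 cells. The zones overlapped in this class. Neutrophils, at a median of 3145 UMIs per cell, had 0 UMIs in 88 cells, which allows a share of cells with a UMI of up to 3.41% at that depth, and T cells stood between 11.7 and 22.9 CPM. Against the other 4 classes, cDC1 were higher by log2 3.51 ± 0.67 (edgeR adjusted p = 0.000302), although Pmepa1 passed the filter through its 4 cDC1 sums with 3 others, so part of this was set by the filter. Without the filter it was 3.62 ± 0.42 (adjusted p = 7.94e-16). In pDC it stood at 54.0 CPM in PV replicate 2 and at 96.3 and 29.7 CPM in the CV libraries, and 6 of the 7 mature dendritic cells held it. So did both cells of the stellate gate, 1 of PV replicate 2 and 1 of CV replicate 2.

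In macrophages Pmepa1 stood at 42.8 and 50.9 CPM in PV libraries (8 and 58 UMIs), against 3.92 and 1.96 CPM in CV libraries (2 and 1 UMIs). The zones did not overlap, and the pooled ratio was 16.9, on the values by which Pmepa1 was chosen, with 20 of the 58 UMIs of PV replicate 2 in 1 cell. The UMIs lay outside the Kupffer gate, with 8 and 52 UMIs in 4 and 10 other macrophages of the PV libraries, against 0 and 1 UMI in the CV libraries. Kupffer cells held 6 UMIs in PV replicate 2 and 0 in the 4 cells of PV replicate 1, against 2 and 0 in the CV libraries. Without the top cell of each library, the macrophage levels were 16.5 and 33.8 CPM in PV libraries, against 0 and 0 CPM in CV libraries. Of the 15 other macrophages with Pmepa1, 13 also held Tgfbr1, where 41 of all 64 other macrophages did (64.1%), and Tgfbr1 stood at 408 CPM in them, against 191 CPM in those with neither Pmepa1 nor Gdf15. Of these 15 carriers 14 were PV cells, while the cells with neither were 11 and 4 in PV libraries and 8 and 19 in CV libraries. Pooled over other macrophages, Tgfbr1 stood at 271 CPM in PV and 149 CPM in CV. The part of zone and library in the difference was not tested. A pair of these 15 cells, both of PV replicate 2 and with 6 and 1 Pmepa1 UMIs, also carried 7 and 6 of the 8 T cell markers, and summed T cell markers in macrophages were 32.1 and 181 CPM in PV libraries and 80.4 and 43.1 CPM in CV libraries. Their part in the Pmepa1 level was not tested.

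Of the 5 members tested in the class comparison, 3 were higher in macrophages, where 35.4% of 4952 genes were. In B cells 2 were higher, where 23.5% of genes were, and in T cells 1 was lower, where 19.2% were. In cDC1 1 was higher and 2 were lower, where 32.3% and 18.5% of genes were. In neutrophils 0 of 5 were called by edgeR, where 54.4% of genes were, with 1 of 5 at an unadjusted p under 0.05 and 1 called by DESeq2. As Tgfbr1 and Pmepa1 passed the filter through the class where they are high, these counts are a description.

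The pathway lists hold the members too. In macrophages, where 35.4% of all genes were higher, the 4 tested receptors of a list of 11 were higher, with a median of log2 2.58 against 0.30 over all genes. They were the members Tgfbr1 and Tgfbr2 with Bmpr2, a type II receptor for BMPs, and Acvrl1, the endothelial and Kupffer cell receptor ALK1 for BMP9 and BMP10, at 4.54 ± 0.41. Receptors that did not pass the filter on low counts were not tested, and Tgfbr1 passed it through its macrophage sums. The receptor count and median are therefore partly set by the filter and are a description. Of the genes for latency and activation, 3 of 5 tested were higher, with a median of 1.88: Itgav, the alpha-v integrin chain that releases the active ligand, at 2.66 ± 0.26, Nrros, which anchors latent TGF-beta on myeloid cells, at 1.88 ± 0.19, and Itgb1. All 3 tested genes of the BMP and ALK1 response were higher, Id1 at 4.64 and Id3 at 4.15. This was not particular to macrophages: in cDC1 the same 3 genes were higher, with a median of 2.08, where 32.3% of all genes were. Acvrl1 and Bmpr2 were also higher in cDC1. Of the Smads, 0 of 3 tested were called, and of 4 p53 targets 3 were higher and 1, Trp53inp1, was lower at -0.93, where 12.1% of all genes were lower. Of 11 TGF-beta target genes, 5 were higher, near the share over all genes, among them Tgfbi, a matrix protein named for its induction by TGF-beta, at 4.34.

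In T cells, 3 of 11 tested target genes were higher, where 33.7% of all genes were, and 2 were lower. Xcl1, a chemokine that attracts cDC1, stood at log2 6.97 and Itga1, the collagen-binding integrin chain of resident lymphocytes, at 3.70, while Skil, a Smad co-repressor, was lower at -1.88. NK cells and ILC1 were not in this fit, and both genes had higher mean levels in ILC1 than in T cells with Cxcr6. Xcl1 stood at 3356 ± 499 CPM (SD, n = 3) in ILC1, against 540 ± 56.6 CPM (n = 4) in Cxcr6+ T cells. Itga1 stood at 297 ± 31.7 and 101 ± 29.5 CPM in the same order. Nrros was lower in T cells at -2.09, and Id1 and Id3 were lower at -4.08 and -4.06 while Id2 was higher at 2.25. In cDC1, 4 of 11 target genes were higher and 3 lower, near the 32.3% and 18.5% over all genes, and Itgae, at 7.17, is also a marker of the cDC1 gate and no result. Ddit3, the stress factor CHOP, was among 3 of 6 stress genes lower in cDC1, where 18.5% of all genes were. In neutrophils, all 6 tested stress genes were higher, where 22.4% of all genes were, with a median of 3.04 against -0.54 over all genes, led by Ddit3 at 3.20, and Gdf15 had 1 UMI in these cells.

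T cells that carried Cxcr6, a marker of residence in liver, differed from circulating T cells in Tgfb1, Tgfbr2 and Smad7. There were 173, 157, 139 and 121 Cxcr6+ cells and 7, 27, 9 and 23 circulating cells over PV replicate 1, PV replicate 2, CV replicate 1 and CV replicate 2, with median depths of 6211 UMIs per Cxcr6+ cell and 5887 UMIs per circulating cell. Tgfb1 stood at 116 and 86.4 CPM (PV) and 124 and 92.4 CPM (CV) in Cxcr6+ cells, against 50.8 and 26.0 CPM (PV) and 21.4 and 42.4 CPM (CV) in circulating cells. It was higher in 4 of 4 libraries without overlap, by log2 1.22 ± 0.40 (edgeR adjusted p = 0.0197), where 7.25% of 5032 genes were higher. The circulating values rest on 3, 4, 1 and 7 UMIs, and the call was lost with DESeq2 (adjusted p = 0.108), after thinning (1.80, adjusted p = 0.0932), without PV replicate 2 (1.15, adjusted p = 0.154) and without CV replicate 1 (1.08, adjusted p = 0.0814).

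Smad7 stood at 87.5 and 124 CPM (PV) and 66.1 and 71.1 CPM (CV) in Cxcr6+ cells, against 136 and 188 CPM (PV) and 107 and 164 CPM (CV) in circulating cells. It was lower in 4 of 4 libraries, with overlap across libraries, by log2 -1.05 ± 0.29 (edgeR adjusted p = 0.00332), where 6.08% of genes were lower. Without CV replicate 2 it was -0.80 with an adjusted p of 0.204, and without the filter -0.80 with an adjusted p of 0.138. At equal depth 14.1% of 580 Cxcr6+ cells held a Smad7 UMI, against 33.8% of 65 circulating cells. Tgfbr2 stood at 70.03 and 61.3 CPM (PV) and 63.8 and 48.7 CPM (CV) in Cxcr6+ cells, against 136 and 188 CPM (PV) and 85.6 and 42.4 CPM (CV) in circulating cells, lower in 3 of 4 libraries by -1.11 ± 0.32 (adjusted p = 0.00651). That call was lost without PV replicate 2 (-0.60, adjusted p = 0.619), with DESeq2 (adjusted p = 0.118) and without the filter (-0.83, adjusted p = 0.234). Pmepa1 (-0.44 ± 0.66), Smad3 (0.50 ± 0.60) and Tgfbr1 did not pass the test, so 3 of 6 members tested were called by edgeR and 1 by DESeq2. From the lists, Xcl1 (5.02 ± 0.36) and Id2 (3.70 ± 0.21), a transcriptional regulator of innate-like lymphocytes, were higher, and Smad4 (-1.47 ± 0.35), the shared partner of the receptor-activated Smads, was lower.

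**Figure D4:**
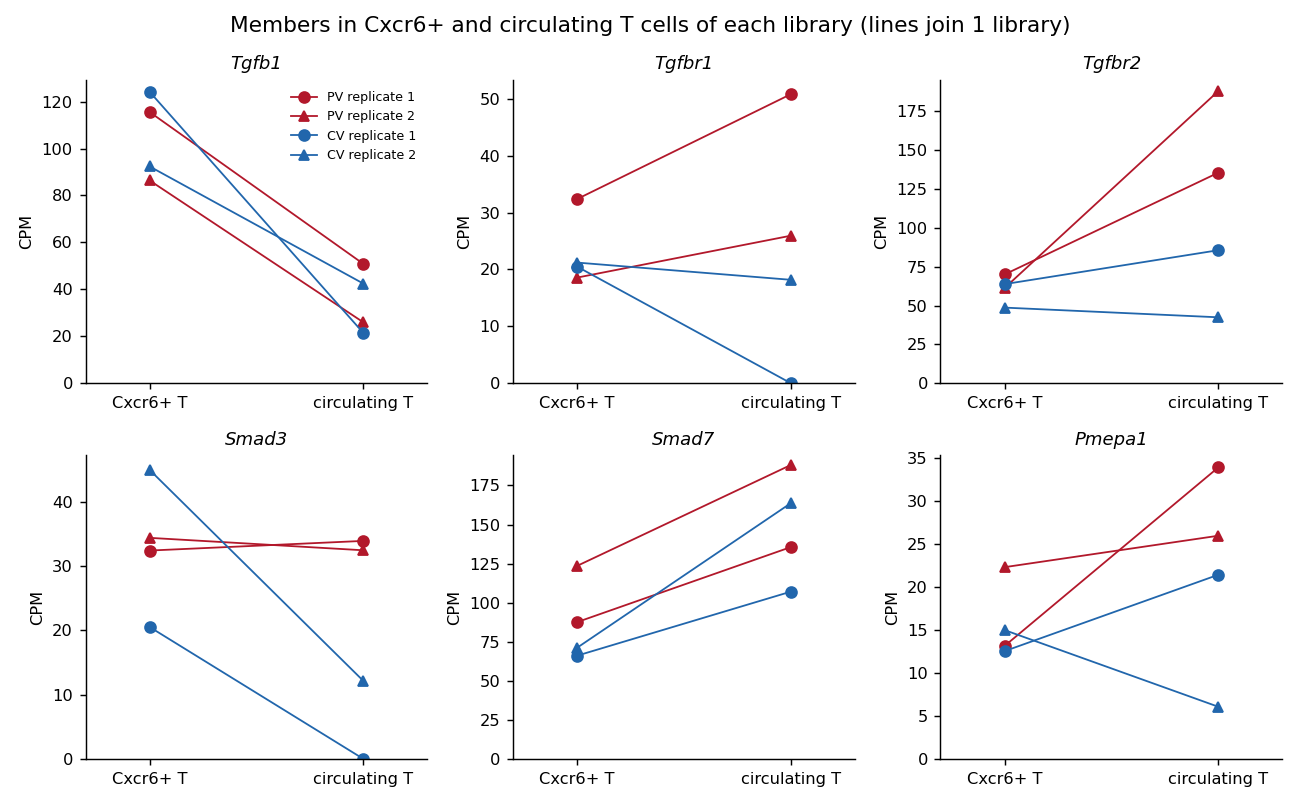
CPM of 6 genes (vertical axis from 0) in Cxcr6+ T cells (left) and circulating T cells (right) of each library, with a line joining the 2 gates of 1 library. Tgfb1 was higher and Smad7 lower in Cxcr6+ cells in 4 of 4 libraries, and Tgfbr2 was lower in 3 of 4.

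Between the zones, no member passed the test in T or B cells. In T cells Smad7 stood at 93.0 and 127 CPM in PV libraries, against 73.1 and 82.2 CPM in CV libraries, without overlap, at log2 0.46 ± 0.21 (edgeR, unadjusted p = 0.0441, adjusted p = 1.0). Pmepa1 stood at 17.6 and 22.9 CPM in PV T cells, against 11.7 and 15.7 CPM in CV T cells (0.51 ± 0.35), and Tgfbr2 at 71.7 and 79.0 CPM in PV, against 65.3 and 45.5 CPM in CV (0.41 ± 0.22). These libraries did not overlap either. The share of all 8013 genes without overlap between the zones was not counted, so the lack of overlap is no result about these members. Of 8013 genes 0 were called in T cells (0.0%), with 227 at an unadjusted p under 0.05, and DESeq2 called 0, with 22 unadjusted. In B cells 0 of 2240 genes were called (0.0%), with 63 unadjusted, and DESeq2 called 0, with 5 unadjusted. Smad7 was at -0.11 ± 0.34, Tgfb1 at 0.37 ± 0.38 and Tgfbr2 at 0.22 ± 0.45 in B cells. An exact permutation test of 2 against 2 libraries could not go below p = 0.333.

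In macrophages, given without a test, Tgfb1 overlapped between zones, with the levels given above. Tgfbr2 stood at 90.9 and 108 CPM in PV libraries, against 64.7 and 58.8 CPM in CV libraries, without overlap. The share of all genes without overlap between the zones in macrophages was not counted either, so a lack of overlap there is no result about the members. Tgfbr1 stood at 246 and 83.4 CPM in PV, against 51.0 and 84.3 CPM in CV, and the high value was that of PV replicate 1, where 18 of 22 macrophages lay outside the Kupffer gate. Smad7 was lowest in that library, at 16.0 CPM with 78.1 CPM in the other PV library, against 86.2 and 54.9 CPM in CV libraries.

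**Figure D5:**
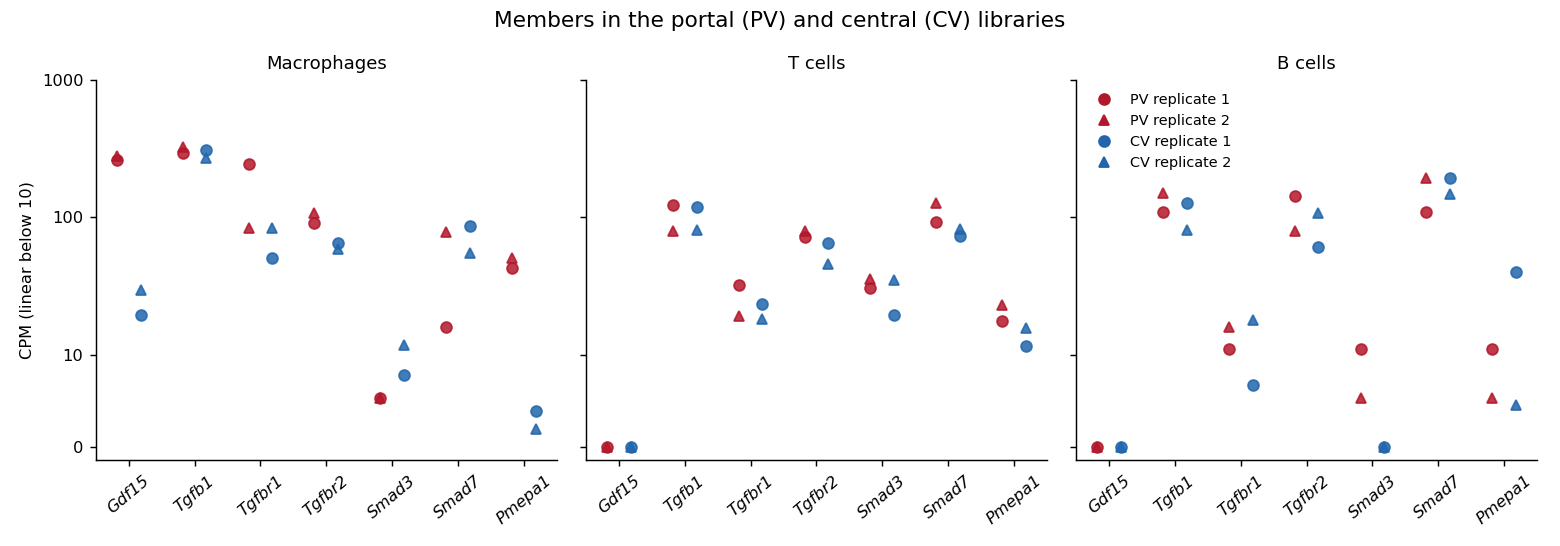
CPM of the 7 genes (vertical axis, linear below 10 and logarithmic above) in macrophages, T cells and B cells, with PV libraries in red left of CV libraries in blue and 1 point per library. The PV and CV points stand apart for Gdf15 and Pmepa1 in macrophages, while Tgfb1 overlaps in all 3 classes.

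Over the 20 sums of 5 classes in 4 libraries, which share libraries and depth, the genes most like each member among 9158 genes were found by Pearson correlation of log2 CPM with 10 CPM added. They were Cxcl14 (r = 0.971), Mmp13 (0.957) and H2-M2 (0.948) for Gdf15. For Pmepa1 they were Nudt2 (0.872), Jpt2 (0.849) and Slamf7 (0.843). For Tgfb1 they were Htra2 (0.907), Mfsd11 (0.887) and Stard3 (0.878), and for Tgfbr1 Fam213b (0.920), Ascc2 (0.862) and Slc36a1 (0.858). The closest genes were Ddx58 (0.922) to Tgfbr2, Smpd5 (0.909) to Smad3 and Yrdc (0.886) to Smad7. Among the members, Tgfb1 and Tgfbr1 ran most alike (0.813), followed by Gdf15 and Tgfbr1 (0.804), while Gdf15 and Pmepa1 stood at 0.193.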

How the data were processed

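Each library has 1 matrix of raw counts, the UMIs of each gene in each barcode, as the authors deposited it. Cell Ranger 4.0.0 and mm10 are named as tool and build, per the submitters' processing notes. How barcodes were called as cells is not given in the sources used here. The 7 genes, the marker lists and the pathway lists were chosen with earlier results of these data known. A symbol was matched for 32158 of 32285 identifiers, and positions come from GENCODE vM21 on GRCm38. Deposited totals were 3063778 and 4373488 UMIs for the PV libraries and 2741760 and 2916638 UMIs for the CV libraries.

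Barcodes were kept with at least 200 genes and at most 10% mitochondrial UMIs. A cell entered a class with at least 3 of that class's 8 markers detected and at least 1 more than for any other class. Ties, 33 cells, were left out as possible doublets, no doublet caller was run, and 25 cells had no gate. Kupffer cells were macrophages with at least 3 of 8 Kupffer markers. Cxcr6+ T cells held a Cxcr6 UMI and under 2 of 4 markers of recirculating T cells, and circulating T cells held 0 Cxcr6 UMIs and at least 2 of these 4, which are not all reported here.

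The cells of a class were summed within each library, and the sums were tested in R 4.3.3 by quasi-likelihood (edgeR 4.0.16), with TMM, filterByExpr and Benjamini-Hochberg adjustment over all genes tested at 0.05. Libraries were a block, except between zones. The class comparison took those classes that had 10 or more cells in each library, with both macrophage gates as 1 class. The comparison of Kupffer cells with other macrophages took libraries with at least 5 cells of each, which left out PV replicate 1. ILC1 and NK cells were not compared, since 2 libraries qualified. Zones were compared where each library held 20 or more cells of a class. The test of Gdf15-positive cells was meant for thinned cells, but only 1 library then held 3 positive cells, so it was run at the cells' own depth. DESeq2 1.42.0, no filter, thinning to 2000 UMIs, shared barcodes kept, other cell limits and each library left out were alternatives. With shared barcodes kept, 1 barcode can count in several libraries, so calls in that setting do not rest on independent libraries. Each fit was tested on simulated data. From the pathway lists, genes with the smallest p in each comparison and list were named.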

Additional observations from a re-analysis of the deposited data

Results flagged for a closer look

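In 3 results every PV library moved one way and every CV library the other, on the log2 scale with 10 CPM added, and none of these differences was tested. Pmepa1 in macrophages, set against the mean of the other 4 classes, stood at 1.07 and 1.23 in PV libraries and at -1.11 and -0.832 in CV libraries, a difference of 2.12, in the contrast for which Pmepa1 was picked. Tgfbr1 in T cells, set against the other 4 classes, stood at -0.219 and -0.0905 in PV libraries and at 0.00751 and 0.0343 in CV libraries, a difference of -0.176. Tgfbr1 in Cxcr6+ T cells, set against circulating T cells, stood at -0.521 and -0.331 in PV libraries and at 1.61 and 0.147 in CV libraries, a difference of -1.3, where CV replicate 1 had 0 Tgfbr1 UMIs in 9 circulating cells.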

How the results depend on the processing

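Of the recomputed values of single genes, 524 kept their direction and their side of the threshold, 22 reversed, 14 gained a call and 14 lost one. Keeping genes of low count raised the called members from 9 to 16 in the class comparison and from 1 to 2 for Kupffer cells, and lowered them from 3 to 1 for Cxcr6+ T cells. Thinning left 3, 0 and 2 of them in these comparisons and 52 of 93 list genes by class. DESeq2 called 1 member for Cxcr6+ T cells, and shared barcodes kept gave 3 for Kupffer cells. Leaving out 1 library gave 1 to 3 members for Cxcr6+ T cells, and 77 to 88 list genes by class. For Gdf15-positive cells the list genes called, 0 in the report, were 1 with DESeq2, 3 without the filter, 2 with shared barcodes, 1 at the 5% mitochondrial limit and 0 to 3 without 1 library. The zone difference of Gdf15 in macrophages, log2 3.47, was 2.35 with shared barcodes, 3.99 at the 5% limit, 2.66 after thinning and 3.20 to 3.79 without 1 library, and that of Pmepa1, 3.99, was 3.58 to 4.58 without 1 library.

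All genes called by edgeR and DESeq2 numbered 365 higher and 306 lower against 192 and 227 for Cxcr6+ T cells, 363 and 323 against 172 and 169 for Kupffer cells, and 1 against 13 for Gdf15-positive cells. The reversals were of values not past the test. They were, without the filter, Tgfbr1 (-0.24) and Tgfbr2 (-0.0838) in neutrophils and Tgfb1 between zones in T cells (0.00815); with DESeq2, Pmepa1 in B cells (-0.0165) and Gdf15 in Kupffer cells against other macrophages (0.0833); after thinning, Smad7 in T cells (-0.0227), Tgfb1 in Kupffer cells (-0.20), Tgfbr1 between zones in T cells (-0.18) and Smad7 between zones in B cells (0.40); and with 8 classes, Tgfbr1 in neutrophils (-0.41). Without 1 library, Tgfb1 in cDC1 ranged from -0.0339 to 0.25, Tgfbr1 in neutrophils from -1.74 to 0.49, Pmepa1 in B cells from -0.50 to 1.44 and Tgfb1 in Kupffer cells against other macrophages from -0.13 to 0.24. Between zones in T cells the ranges were -0.13 to 0.57 for Tgfbr1, -0.35 to 0.26 for Tgfb1 and -0.14 to 0.74 for Smad3, and in B cells -0.15 to 0.79 for Tgfbr2 and -0.66 to 0.16 for Smad7. The cause of these changes was not tested, except that thinning leaves fewer UMIs and so fewer genes to test.

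Same-numbered PV and CV libraries deviated together with r = 0.107 in T cells and -0.13 in B cells, over 7181 and 1568 genes, and with 2 pairs the numbers were not taken as pairs. With the replicate block 0 members were called between zones, and with the crossed pairing also 0. The thinned test of Gdf15-positive cells was not run, and thinned Pmepa1 gave no zone value. The 4 libraries and the 22 macrophages of PV replicate 1 limit the precision, and circulating T cells held 1 to 7 UMIs of Tgfb1 per library.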
